A study of Mus musculus with 4 samples.

Results

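Interneuron transcription factors are the regulators that give the GABAergic neurons of the cortex their identity, and 9 of them were followed here (Dlx1, Dlx2, Dlx5, Dlx6, Lhx6, Sp8, Sp9, Sox6 and Maf) among 55421 listed genes. They were taken as a named set of genes and looked up in the count tables by Ensembl identifier through GENCODE M21. Cells of the prefrontal cortex of newborn (P0) C57BL/6 wild-type mice were grown in dishes to day 10. FGF2, a fibroblast growth factor, was given at 5 ng/mL to one group and left out of the other, and total RNA was sequenced from 2 libraries of each. Both groups grew in neurobasal medium with B27, and the labels describe no sort, so each library may hold every cell type that survived in the dish. The titles number the libraries of a group B1 and B2, called replicates 1 and 2 here, and do not say whether B stands for a biological replicate, a batch or something else. Nothing else says that they came from separate animals or cultures, and the methods give technical replicates for most samples, so p-values measure only the spread between these libraries, which may be technical.

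Cortical interneurons are born in the ganglionic eminences below the cortex and migrate into it before birth. The Dlx homeobox factors act in all of their precursors, where they switch on the genes of GABA synthesis. In the medial eminence, Nkx2-1 turns on the LIM-homeobox factor Lhx6, which is followed by the HMG-box factor Sox6 and the leucine-zipper factor Maf in the lineages that make somatostatin and parvalbumin interneurons. The zinc-finger factors Sp8 and Sp9 act in precursors of the caudal and lateral eminences and of the olfactory bulb, and Sp9 also in the medial eminence. Sox6 is not restricted to interneurons, since cortical progenitors and oligodendrocyte precursors also use it, and Maf is also found in microglia.

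Of the 9 factors, 8 fell and 1 rose with FGF2. Called here means an adjusted p below 0.05 in the quasi-likelihood test of edgeR, corrected over 17144 genes by the Benjamini-Hochberg method. By this rule Dlx1, Dlx2, Dlx5, Dlx6, Lhx6, Sp8, Sp9 and Maf were lower and Sox6 was higher. Among all tested genes 19.9% were called lower and 20.7% were called higher. All 9 factors passed the expression filter. In 8 of them both libraries with FGF2 lay below both libraries without FGF2, where 33.4% of tested genes did, and for Sox6 both lay above, where 33.6% of tested genes did. The median log2 fold change of the 9 was -0.46, and that of all tested genes was -0.0008. With DESeq2, a second count test, 3 of the 8 falls were called (Dlx1, Dlx2 and Lhx6), beside 11.2% of genes called lower, and the rise of Sox6 was called, beside 12% called higher. The falls of Dlx5, Dlx6, Sp8, Sp9 and Maf were called by edgeR and limma-voom and not by DESeq2. Bulk RNA cannot tell fewer cells of a type from less RNA per cell.

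**Figure D1:**
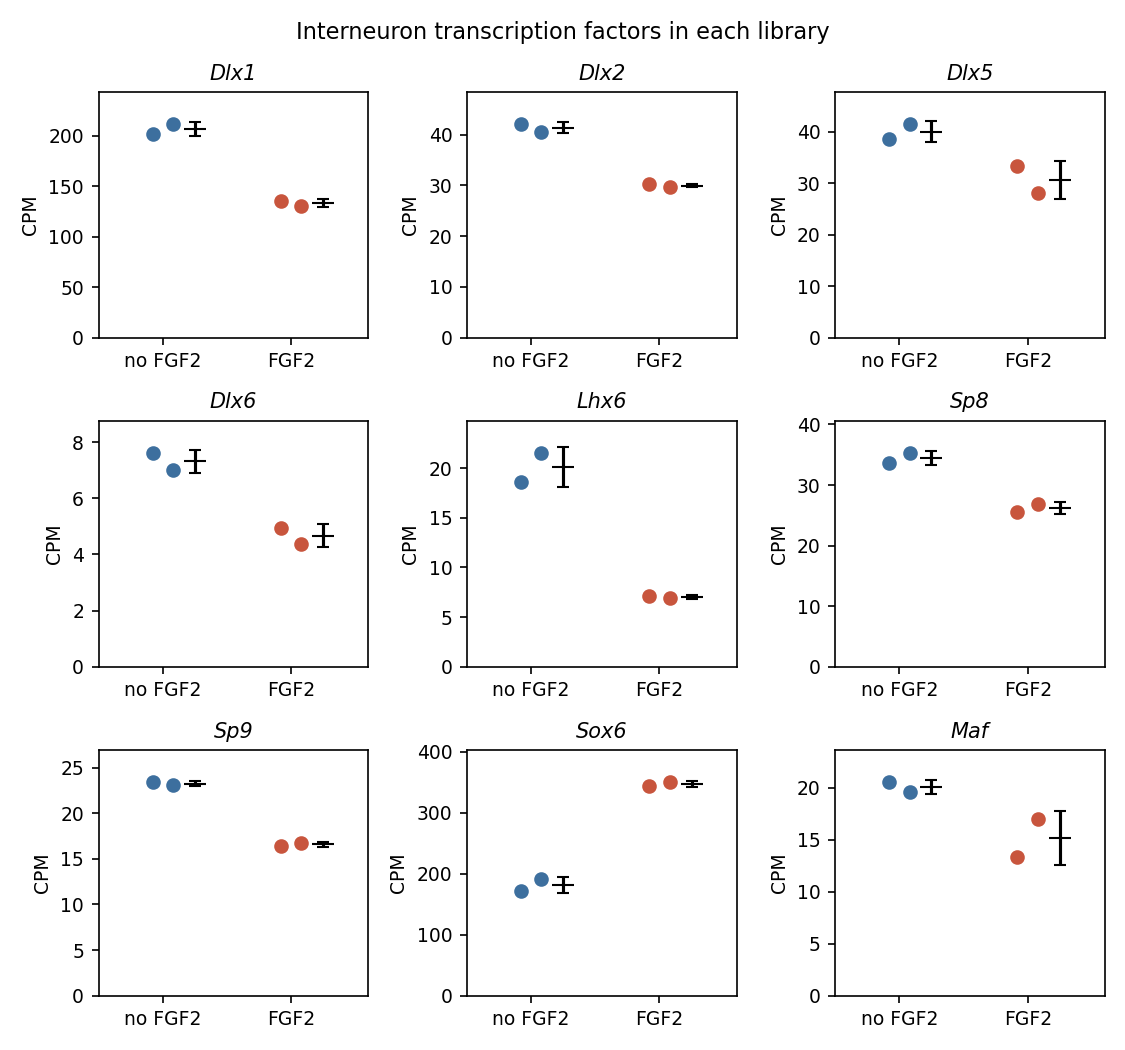
Level of each interneuron transcription factor as CPM (counts after scaling every library to the same total, vertical axes from 0) in the 2 libraries without FGF2 (blue) and the 2 with FGF2 (red), with the mean and SD in black. The groups do not overlap in any of the 9 panels, and Sox6 is the one factor with higher points with FGF2.

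The upstream sequences of 4 factors are given, 2 that moved most (Lhx6 down, Sox6 up) and 2 with changes close to the median of pan-neuronal genes (Dlx2 and Sp9). They come from RefSeq on GRCm38.p6, the assembly of mm10, and hold the 250 bases before a start site, read 5′ to 3′ on the strand of the gene. The table held start sites for 6 of the 9 factors, 15 in all, and none for Dlx5, Dlx6 and Maf. Capitals mark GGGCGG, the GC box that Sp-family zinc fingers bind, and CAGCTG, an E-box of the kind bound by basic helix-loop-helix factors, both searched on either strand. The homeodomain core TAATTA was searched in the same way and was absent from these 4 windows. No marked motifs overlap each other.
Dlx2 (chr2:71546755-71547004, minus strand): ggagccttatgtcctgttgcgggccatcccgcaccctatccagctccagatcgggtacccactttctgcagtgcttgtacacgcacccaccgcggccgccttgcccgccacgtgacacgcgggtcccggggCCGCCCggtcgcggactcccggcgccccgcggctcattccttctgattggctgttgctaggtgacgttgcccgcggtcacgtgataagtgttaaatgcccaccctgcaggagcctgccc
Lhx6 (chr2:36105409-36105658, minus strand): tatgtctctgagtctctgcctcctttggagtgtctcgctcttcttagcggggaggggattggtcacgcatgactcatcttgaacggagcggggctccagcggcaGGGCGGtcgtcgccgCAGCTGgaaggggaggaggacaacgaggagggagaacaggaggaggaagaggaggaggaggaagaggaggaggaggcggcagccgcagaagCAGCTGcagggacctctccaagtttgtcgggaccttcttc
Sp9 (chr2:73271676-73271925, plus strand): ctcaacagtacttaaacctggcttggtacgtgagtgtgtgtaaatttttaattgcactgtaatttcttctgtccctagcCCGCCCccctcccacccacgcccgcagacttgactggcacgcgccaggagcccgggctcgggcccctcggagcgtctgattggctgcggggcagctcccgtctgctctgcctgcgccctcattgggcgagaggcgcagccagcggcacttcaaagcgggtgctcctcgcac
Sox6 (chr7:116031048-116031297, minus strand): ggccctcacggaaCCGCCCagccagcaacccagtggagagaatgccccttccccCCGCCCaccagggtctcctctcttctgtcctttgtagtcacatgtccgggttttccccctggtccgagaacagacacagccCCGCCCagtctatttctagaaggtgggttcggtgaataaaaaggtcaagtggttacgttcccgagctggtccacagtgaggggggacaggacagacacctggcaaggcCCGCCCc

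The Dlx2 and Sp9 windows each held 1 GC box, the Lhx6 window held 1 GC box and 2 E-boxes, and the Sox6 window held 4 GC boxes. Of 32851 such windows in the RefSeq table, 32.7% held at least 1 GC box, 13% at least 1 CAGCTG and 4.84% at least 1 TAATTA. GC content was 66.4% for Dlx2, 61.6% for Lhx6, 62.4% for Sp9 and 60.8% for Sox6. Lhx6 has 3 start sites in the table and Sox6 has 6, and no Sox6 window other than that shown held a GC box. The start site of this window, at 116031047, lies inside the gene, downstream of a start site at 116038744. The Dlx1 window held 0 GC boxes. Among the Sp8 windows, only that before 118847233 held a GC box. Among the Lhx6 windows, only that before 36104060 held none. The 4 windows shown thus do not stand for all 15, and enrichment of the motifs was not tested. In the other windows, TAATTA was found once, before the third start site of Sp8. The matches describe letters in these windows and no binding was measured.

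Dlx1 and Dlx2, the pair that opens the interneuron programme, lie tail to tail on chromosome 2. Dlx1 (mm10, chromosome 2 from 71528113 to 71533981, plus strand) had 136 and 130 CPM in replicates 1 and 2 with FGF2, and 202 and 212 CPM without FGF2. Its mean was 133 ± 3.84 CPM with FGF2 and 207 ± 7.02 CPM without (SD, n = 2). The log2 fold change of Dlx1 was -0.64 (standard error 0.05, edgeR adjusted p = 2.79e-31), and no alternative processing changed the call. The level with FGF2 was 0.644 times that without it, and the groups did not overlap. Dlx2 (chromosome 2 from 71543408 to 71546754, minus strand) had 30.2 and 29.7 CPM with FGF2 and 42.1 and 40.5 CPM without. The libraries of each group were close together and the groups did not overlap. Its log2 fold change was -0.46 (standard error 0.10, edgeR adjusted p = 5.08e-05). With DESeq2 the adjusted p-value of Dlx2 was 0.015. Per exonic length, Dlx1 stood above Dlx2 in every library, by a log2 ratio of 1.23 ± 0.024 with FGF2 and 1.41 ± 0.086 without (SD, n = 2).

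Dlx5 and Dlx6, which act after Dlx1 and Dlx2, form a second tail-to-tail pair on chromosome 6. Dlx5 (chromosome 6 from 6877805 to 6882085, minus strand) had 33.3 and 28.1 CPM with FGF2 and 38.6 and 41.5 CPM without. The lower of the libraries without FGF2 was above the higher of those with it. The log2 fold change of Dlx5 was -0.39 (standard error 0.11, edgeR adjusted p = 9.75e-04). It was -0.27 (edgeR adjusted p = 0.0739) once FGF2 replicate 2 was left out, and DESeq2 gave an adjusted p of 0.0713. Dlx6 (chromosome 6 from 6863334 to 6868568, plus strand) was the factor with the fewest reads, 45 and 43 in the FGF2 libraries against 80 and 76 in the others. This corresponds to 4.96 and 4.37 CPM with FGF2 and 7.61 and 7.02 CPM without. The log2 fold change of Dlx6 was -0.65 (standard error 0.25, edgeR adjusted p = 0.0245), of the size of Dlx1 but with far fewer reads behind it. Its edgeR adjusted p rose to 0.13 when FGF2 replicate 2 was left out, to 0.161 or 0.0745 when the first or the other untreated library was, and DESeq2 gave an adjusted p of 0.241. Transcripts of Dlx6 share a stretch of 100 to 151 bases, at 95% identity or more, with 19 other genes. Reads from it may be misplaced or lost to the filter on mapping quality, and the effect on the counts was not tested.

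Each Dlx pair has a long non-coding partner, antisense to Dlx1 or to Dlx6, and neither partner was called. Dlx6os1, the long RNA also known as Evf2 whose gene reaches across the Dlx6 locus (chromosome 6 from 6820189 to 6871592, minus strand), had 1806 and 1983 counts in the FGF2 libraries and 2021 and 2049 in the untreated ones. Its level was 200.3 ± 1.83 CPM with FGF2 and 191 ± 2.19 CPM without (SD, n = 2), a log2 fold change of 0.07 (standard error 0.05, edgeR adjusted p = 0.269). The coding neighbours thus fell while Dlx6os1 did not pass the test in either direction. These values are for the entry of that name with the most exonic bases. Another entry named Dlx6os1, on the same strand, shares 104 exonic bases with it (2.01%), and its counts are not given here. Dlx6os2, on the strand opposite Dlx6, shares 104 exonic bases with Dlx6 (4.38%) and is not given either. In each library, the per-length log2 ratio of Dlx6 to Dlx6os1 was -4.20 and -4.40 with FGF2, below the -3.54 and -3.63 without. For Dlx5 to Dlx6os1 the ratio was -1.52 ± 0.187 with FGF2 and -1.06 ± 0.091 without (SD, n = 2). These ratios did not overlap between the groups. The ratios were not tested. An exact permutation test of 2 libraries against 2 cannot go below a two-sided p of 0.333. Dlx1as, antisense to Dlx1, had 20.3 ± 0.190 CPM with FGF2 and 22.7 ± 3.66 CPM without (SD, n = 2), and its log2 fold change of -0.16 did not pass (standard error 0.13, edgeR adjusted p = 0.348). It was 0.01 when replicate 1 without FGF2 was left out and -0.32 when replicate 2 was, so its size and sign rest on single untreated libraries. The per-length log2 ratio of Dlx1 to Dlx1as was 0.99 ± 0.055 with FGF2 and 1.47 ± 0.283 without (SD, n = 2). Exons of the 2 genes share 335 bases on opposite strands, which is 20.6% of Dlx1as. The strand setting of the counting is not stated. Of 472 genes covered at least 98% by exons of the opposite strand, 161 had counts, against 4 of 692 covered on the same strand. Reads were thus counted by strand, but this does not show that the libraries themselves kept the strand. Whether reads of Dlx1 add to the counts of Dlx1as was not tested.

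**Figure D2:**
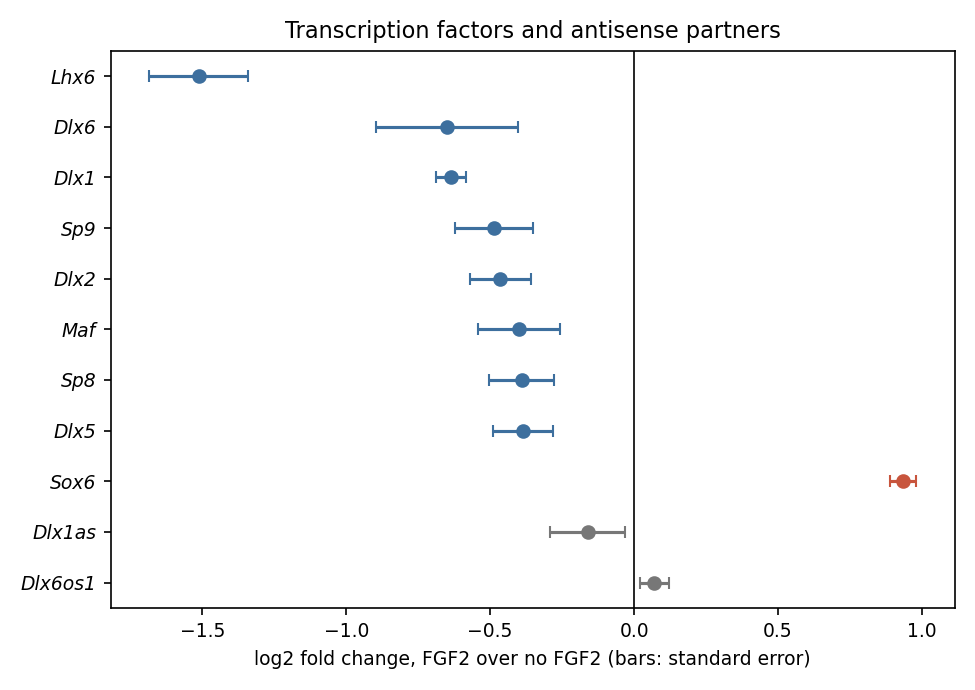
Log2 fold change (horizontal axis, FGF2 over no FGF2) of the 9 factors and the antisense partners Dlx1as and Dlx6os1, with bars for the standard error of the edgeR fit. Lhx6 lies lowest at -1.51, Sox6 highest at 0.94, and the partners (grey) at -0.16 and 0.07.

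Lhx6 had the largest fall of the set. This LIM-homeobox factor (chromosome 2 from 36081953 to 36105408, minus strand) is needed for migration and for somatostatin and parvalbumin identity. It had 65 and 68 counts with FGF2 against 196 and 233 counts without, or 7.16 and 6.91 CPM against 18.7 and 21.5 CPM. The replicates with FGF2 were nearly equal, and even the lower library without FGF2 was far above them. The log2 fold change of Lhx6 was -1.51 (standard error 0.17, edgeR adjusted p = 2.55e-17), or 2.85-fold lower with FGF2, and only 0.84% of tested genes had a lower log2 fold change. It stayed between -1.62 and -1.41 with each library left out in turn, and DESeq2 gave an adjusted p of 1.61e-07. Other genes of medial eminence lineages, Nkx2-1, Lhx8, Sst and Pvalb, were also lower, while Satb1, described further on, was higher. Nkx2-1, the factor that turns on Lhx6, had 5 and 6 counts against 18 and 25 in untreated libraries (log2 fold change -1.77, edgeR adjusted p = 0.00697). Lhx8, a relative of Lhx6 in early medial eminence cells, had 7 and 3 counts against 22 and 15 (log2 fold change -1.69, edgeR adjusted p = 0.0163). DESeq2 called neither Nkx2-1 nor Lhx8 nor, further on, Pvalb. Nkx6-2, another homeobox gene of progenitors that oligodendrocytes also use, had 17 and 16 counts in the FGF2 libraries and 0 and 2 in the others. Sst, the gene of the peptide somatostatin, had 27.8 ± 0.909 CPM with FGF2 and 82.5 ± 0.373 CPM without (SD, n = 2), and fell by 1.57 on the log2 scale (edgeR adjusted p = 1.69e-65). Pvalb, which marks parvalbumin interneurons, was low, at 18 and 19 counts against 44 and 55 (log2 fold change -1.24, edgeR adjusted p = 0.00146).

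Maf and Sox6 act after Lhx6 in the same lineage, and they moved apart. Maf (chromosome 8 from 115682942 to 115707794, minus strand) had 13.3 and 17.0 CPM with FGF2 and 20.6 and 19.6 CPM without. The libraries with FGF2 were uneven, with replicate 2 closer to the libraries without FGF2. The log2 fold change of Maf was -0.40 (standard error 0.14, edgeR adjusted p = 0.0162). When FGF2 replicate 1 was left out it was -0.24 (edgeR adjusted p = 0.256), so that library decides the size of the change. Leaving out the first or the other untreated library also ended the call (edgeR adjusted p = 0.12 and 0.0521), as did DESeq2 (adjusted p = 0.22). The microglial marker list, beside which Maf has to be read, summed to 20.7 and 22.8 CPM with FGF2 and 10.4 and 11.6 CPM without. Of its 10 genes 6 could be tested, 3 were called higher and 0 lower by edgeR, and 1 higher and 0 lower by DESeq2, while Tmem119 and P2ry12 had at most 7 counts in any library. Their part in the level of Maf was not tested.

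Sox6 was the factor that rose. It lies on chromosome 7 from 115470872 to 116038796 on the minus strand and had 344 and 350 CPM with FGF2 against 172 and 191 CPM without. The mean with FGF2 was 1.91 times that without, and the groups were far apart. The log2 fold change of Sox6 was 0.94 (standard error 0.05, edgeR adjusted p = 1.72e-91). It stayed between 0.86 and 1.01 with each library left out, and was called under every alternative run. The oligodendrocyte precursor list rose beside it, with 8 of 8 genes called higher, a median log2 fold change of 1.13, and a summed level of 980.2 and 998 CPM with FGF2 against 409 and 412 CPM without. Pdgfra, the PDGF receptor of these precursors, had a log2 fold change of 0.74 and Gpr17, which marks committed precursors, had 2.60. The part of these cells in the level of Sox6 was not tested. Its closest relatives of the SoxD family did not pass, with a log2 fold change of -0.03 for Sox5 (edgeR adjusted p = 0.864) and 0.05 for Sox13 (edgeR adjusted p = 0.855).

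Sp8 and Sp9, zinc-finger factors of the caudal and lateral eminences and, for Sp9, also of the medial eminence, fell by similar amounts. Sp8 (chromosome 12 from 118846329 to 118852576, plus strand) had 25.6 and 26.9 CPM with FGF2 and 33.6 and 35.3 CPM without. Its log2 fold change was -0.39 (standard error 0.11, edgeR adjusted p = 0.00205, DESeq2 adjusted p = 0.0779). Sp9 (chromosome 2 from 73271925 to 73284706, plus strand) had 16.4 and 16.8 CPM with FGF2 and 23.4 and 23.1 CPM without. The Sp9 log2 fold change was -0.49 (standard error 0.14, edgeR adjusted p = 0.00143, DESeq2 adjusted p = 0.0736). For both genes the replicates lay close together and the edgeR call held with each library left out. The broadly expressed Sp1, Sp3 and Sp4 were called higher by edgeR, at log2 fold changes of 0.48, 0.21 and 0.20, and DESeq2 did not call Sp3 or Sp4. Prox1 and Nr2f2, also factors of the caudal eminence, had log2 fold changes of -0.40 and -0.51 (edgeR adjusted p = 4.68e-06 and 0.00902). DESeq2 did not call Nr2f2. They belong to a list of 14 later interneuron factors, of which edgeR called 6 lower and 6 higher. Among those called higher were Npas1 and Npas3, at 0.89 and 0.28. The counts of Npas1 were low and uneven without FGF2, at 42 and 37 with FGF2 against 16 and 32 (edgeR adjusted p = 0.0277).

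Most pan-neuronal genes were lower with FGF2, and each factor was therefore also read against neuronal lists inside the same library. The 12 pan-neuronal genes, such as Map2 and Dcx, had 11 genes called lower and 1 higher, and a median log2 fold change of -0.46. They were not uniform, and ran from -1.10 for Tubb3 to 0.38 for Nefl. Relative to their mean log2 CPM, Dlx2 was at -2.67 ± 0.051 with FGF2 and -2.69 ± 0.030 without (SD, n = 2), and Sp9 was at -3.52 ± 0.013 and -3.52 ± 0.007. The difference between the groups was 0.03 for Dlx2, 0.005 for Sp9, 0.08 for Maf, 0.10 for Sp8, 0.10 for Dlx5, -0.15 for Dlx1 and -0.15 for Dlx6 on the log2 scale. These 7 factors thus differed from the mean of the list by at most 0.15, and in Dlx2, Dlx5, Dlx6, Sp9 and Maf the libraries of the groups overlapped. The genes of the list were themselves spread more widely than this. How many of all tested genes lie as close to the list mean was not counted. Lhx6 lay 1.01 lower with FGF2 relative to the same list, from -3.73 ± 0.152 without to -4.74 ± 0.070 with FGF2 (SD, n = 2). Sox6 lay 1.43 higher, from -0.56 ± 0.112 to 0.86 ± 0.015 (SD, n = 2). These shifts are larger than the spread between libraries, and they were not tested.

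**Figure D3:**
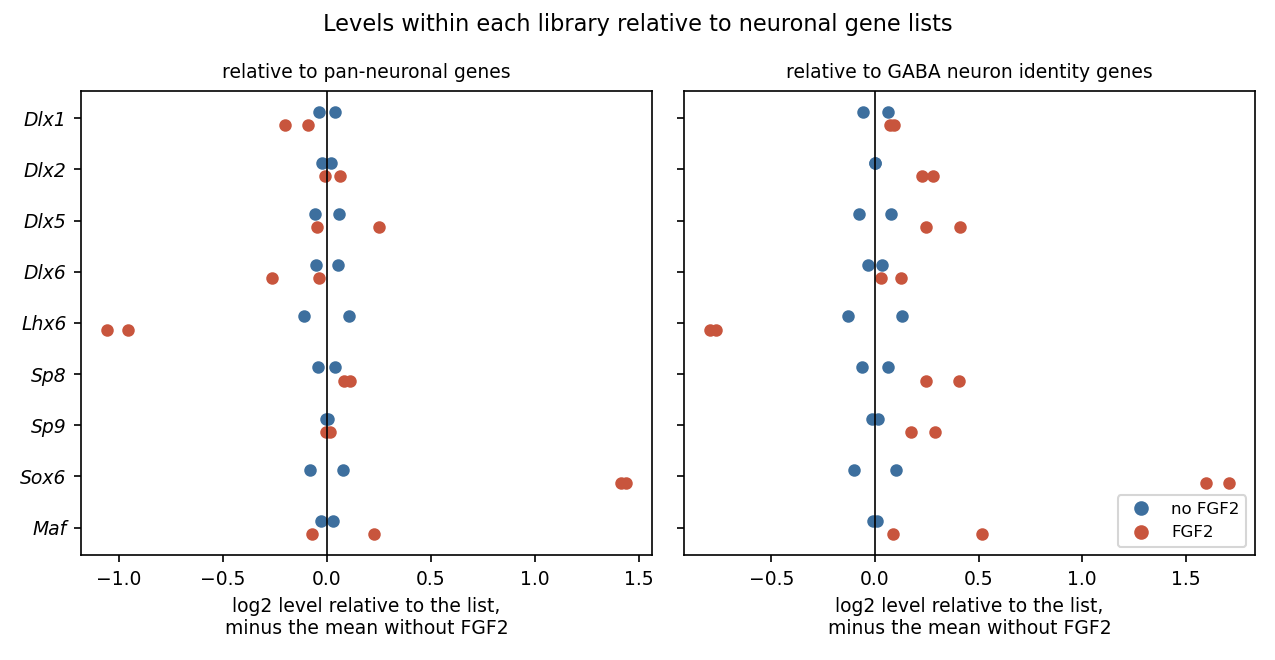
Log2 level of each factor relative to the mean of the pan-neuronal list (left) or the GABA neuron identity list (right) in each library, with the mean without FGF2 set to 0 (blue no FGF2, red FGF2). On the left 7 factors stay within 0.15 of 0 on average, Lhx6 lies 1.01 lower and Sox6 1.43 higher.

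GABA neuron identity genes had a lower median log2 fold change than the factors, a difference that was not tested. Of 22 GABA neuron identity genes 21 were tested, and 15 were called lower and 1 higher, with a median log2 fold change of -0.67. DESeq2 called 12 lower and 0 higher. Gad1 and Gad2, the GABA-synthesizing enzymes and targets of Dlx factors, had log2 fold changes of -0.67 and -0.72, and Slc32a1, the vesicular GABA transporter, had -1.26. Calb2 and Npy, which mark interneuron subsets, had -1.24 and -1.45. Vip, Cck, Lamp5, Htr3a and Crhbp did not pass, and their log2 fold changes lay between -0.48 for Crhbp and 0.13 for Vip. Ackr3, a chemokine receptor of migrating interneurons, was the gene called higher, at 0.59 (edgeR adjusted p = 0.0368). Relative to the mean of the 21 genes, Dlx1, Dlx2, Dlx5, Dlx6, Sp8, Sp9 and Maf were higher with FGF2. The log2 differences were between 0.08 and 0.33, with no overlap between the groups except in Dlx6. For Dlx1 the gap was narrow, at 2.609 in FGF2 replicate 1 and 2.6 in replicate 2 without FGF2. The list mean itself fell, from at least 5.127 log2 CPM without FGF2 to at most 4.478 with it. Genes that fell less than the list thus lie higher relative to it. Of all tested genes, 91.8% had a higher log2 fold change than Dlx1. Lhx6 was 0.78 lower and Sox6 1.65 higher relative to this list. Gad1 relative to Dlx1, per exonic length, was at a log2 ratio of 0.51 ± 0.11 with FGF2 and 0.54 ± 0.010 without (SD, n = 2), a difference between the groups smaller than the spread with FGF2.

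The other regulators of the lineage went both ways. Of 14 later interneuron factors 6 were called lower and 6 higher by edgeR, and 5 lower and 4 higher by DESeq2, with a median log2 fold change of -0.03. Pbx3, Meis2 and Tshz1, of lateral eminence and olfactory precursors, had log2 fold changes of -0.79, -0.32 and -0.30. Nr2f1 was also lower, at -0.37. Satb1, which acts after Lhx6, rose by 0.58 and Zeb2, which acts in migrating interneurons and also in glia, rose by 0.40 on the log2 scale. St18, Npas1, Npas3 and Etv1 were also called higher. Upstream of Dlx1 and Dlx2, the homeobox gene Gsx1, with 37 and 40 counts against 26 and 22, was called higher (log2 fold change 0.85, edgeR adjusted p = 0.0389), and Gsx2, with 13 and 10 counts against 6 and 8, was not. DESeq2 did not call Gsx1.

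Levels of the factors were compared per exonic length, as TPM, here counts per kilobase of annotated exon scaled to the same total in each library. Without FGF2, Dlx1 stood first at 163 ± 5.17 TPM, above 93.4% of tested genes on the mean of all libraries. Dlx5 (75.0 ± 3.72 TPM), Dlx2 (61.4 ± 1.73), Sox6 (51.9 ± 3.66), Sp8 (32.1 ± 1.04), Sp9 (19.6 ± 0.233), Lhx6 (17.7 ± 1.75), Dlx6 (13.1 ± 0.778) and Maf (10.3 ± 0.377) followed (SD, n = 2). Sp9 and Lhx6 were apart by less than the SDs of these levels added. With FGF2, Sox6 reached 98.6 ± 3.42 TPM, beside 104 ± 0.758 TPM for Dlx1, and Lhx6 became the lowest at 6.17 ± 0.022 TPM (SD, n = 2). Dlx6 and Maf overlapped there, at 8.27 ± 0.558 and 7.76 ± 1.49 TPM. Sox6 has 14832 annotated exonic bases, the most of the set, which divides its TPM by a larger length.

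**Figure D4:**
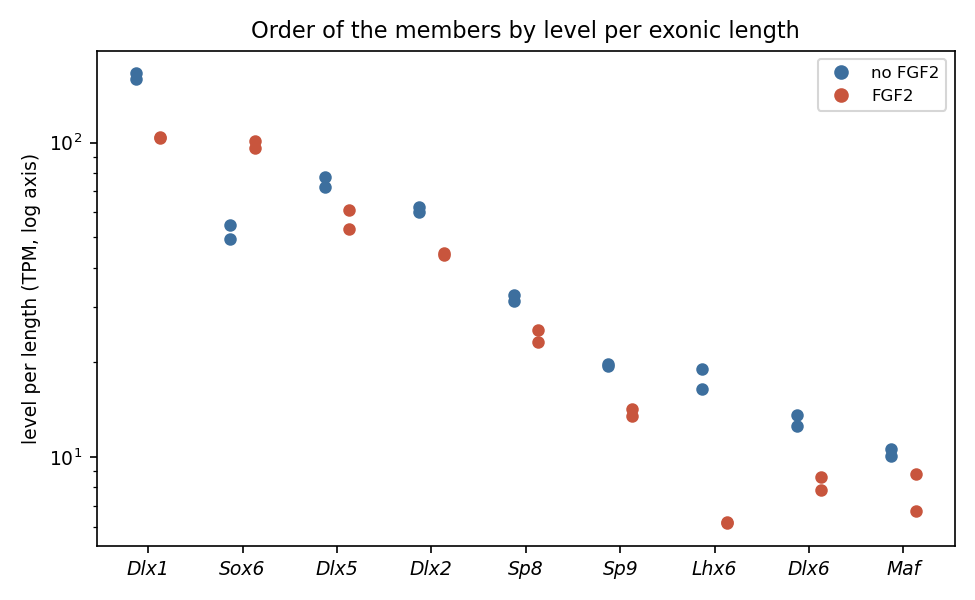
Level per exonic length (TPM, log axis) of the 9 factors in each library, ordered by the mean of all libraries (blue no FGF2, red FGF2). Dlx1 is highest, Sox6 moves up from 51.9 to 98.6 TPM, and Lhx6 moves down from 17.7 to 6.17 TPM.

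Some genes had a profile over the 4 libraries that was nearly the same as that of a factor, by the distance of centred log2 CPM among 12650 other genes of at least 5 CPM. Nearest to Lhx6 were Fgf1 (distance 0.141, log2 fold change -1.47) and Tmem132c (0.149, -1.41). Nearest to Sox6 were Cflar (distance 0.038, log2 fold change 0.96) and Ptpre (0.0568, 0.90). Knstrn and Gm10039 were nearest to Dlx1, and Dmtn and Tmx4 to Dlx2. With 4 libraries the measure holds little beyond the size of the difference between groups.

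Markers of other cells moved as well, and these values stand beside all 9 factors. Astrocyte markers had 8 of 10 genes called higher and 1 lower (median log2 fold change 0.41, summed level 12630 to 12750 CPM with FGF2 and 7742 to 7793 CPM without). All 5 tested of 6 mature oligodendrocyte markers were higher (median 2.18). Excitatory neuron markers had 7 of 14 lower and 1 higher (median -0.35). Progenitor markers had 3 of 8 lower and 3 higher, and proliferation markers had 5 of 6 lower by edgeR and 3 by DESeq2. Endothelial markers were sparse, with 1 lower and 1 higher of 3 tested by edgeR, 0 lower and 1 higher by DESeq2, and Cldn5 at 0 in every library, and meningeal fibroblast and mural markers had 2 lower and 2 higher of 6 tested. The part of these cell types in the levels of the factors was not tested.

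**Figure D5:**
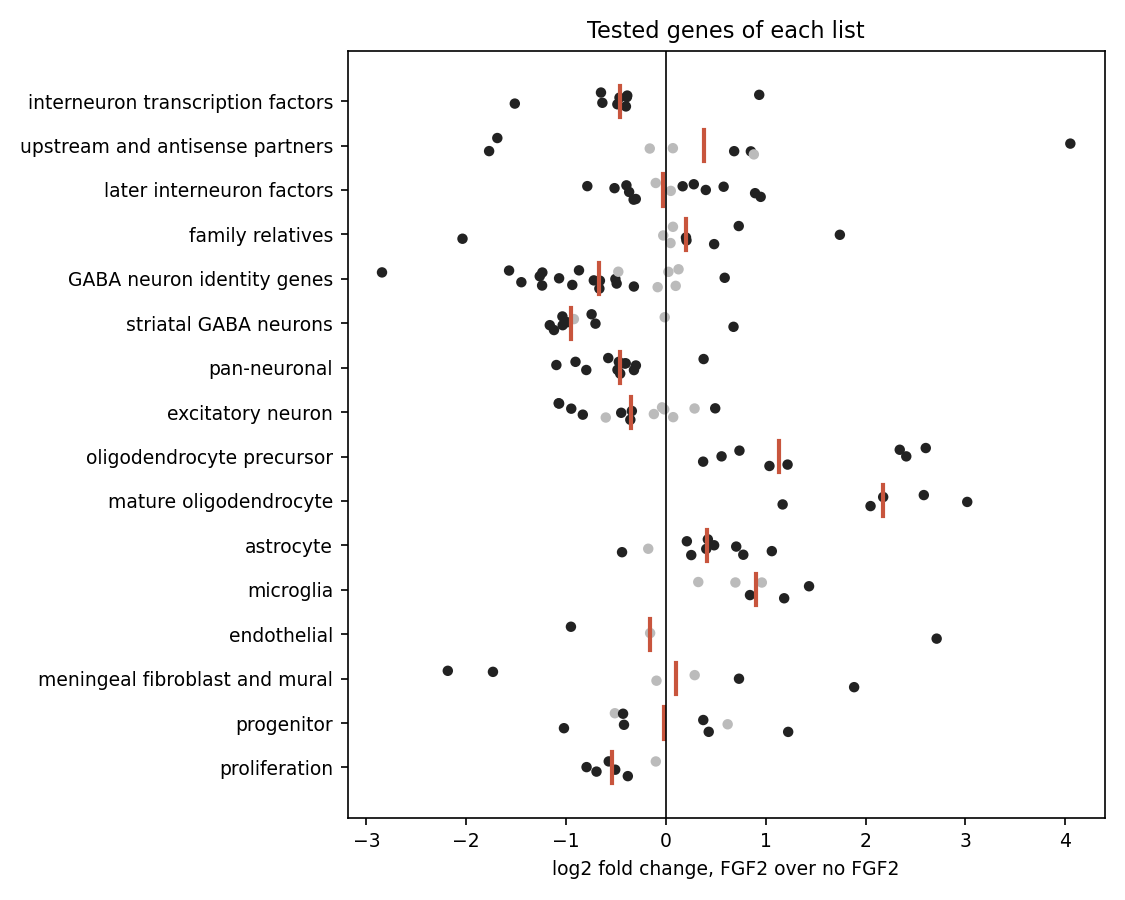
Log2 fold change (horizontal axis, FGF2 over no FGF2) of each tested gene of the lists, black where the edgeR adjusted p is below 0.05 and grey otherwise, with the median of each list in red. The 9 factors and the pan-neuronal list share a median of -0.46, while oligodendrocyte lists lie at 1.13 and 2.18; points past 2 on either side among upstream, family and GABA genes rest on few counts.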

How the data were processed

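RNA libraries of cultured P0 mouse PFC cells were analysed, 2 with and 2 without FGF2. The authors mapped reads to mm10 with HISAT2 2.1.0, filtered them on mapping quality in Samtools, then tallied them by gene in HTSeq 0.11.2 (versions from the submitters' processing notes), and the deposited values are raw counts for 55421 genes. The annotation release and strand setting are not given in the sources used here. Totals on genes were 9166432 and 9907613 with FGF2 and 10460236 and 10799886 without, and 43.1% to 45.9% of tallied read pairs lay in no feature and 1.47% to 1.77% were ambiguous, both left out. A count of 0 allows up to 0.278 to 0.327 CPM (3 counts, counting error only).

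Of the identifiers, 55240 matched GENCODE M21. Counts were tested with edgeR 4.0.16 in R 4.3.3 (TMM, expression filter, robust quasi-likelihood, Benjamini-Hochberg adjustment over 17144 genes), and the code was tested on simulated counts. Standard errors are the log2 fold change over the root of F. CPM use TMM factors (0.993 to 1.01), log2 CPM a prior count of 1. Near-identical stretches were searched with BLAST 2.17.0. Replicates differed by more than sampling noise (chi-square per degree of freedom 2.28 with and 1.75 without FGF2). The factors and lists were chosen with earlier results of these data known. Genes named are the 9 factors, their antisense partners, genes of the lineage lists, of other lists the highest, the largest changes and those at or near 0, and for factors of at least 5 CPM the 2 nearest genes. P2ry12 and Tmem119 were named after their values were seen. Alternatives tried were scaling by total count, upper quartile or RLE, no filter, at least 10 counts in every library, DESeq2 1.42.0, limma-voom (limma 3.58.1), a replicate block, each library left out, and a threshold of 0.01. Some genes of the lists are counted but not reported here by name.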

Additional observations from a re-analysis of the deposited data

How the results depend on the processing

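Of the 9 factors, Dlx1, Dlx2, Lhx6 and Sox6 kept direction and call under all 12 alternative fits, and 0 factors changed direction under any. With DESeq2, 3 factors were called lower in place of 8, and over all genes 1939 were lower and 2068 higher in place of 3408 and 3541. The log2 fold changes that DESeq2 no longer called were -0.39 for Dlx5, -0.65 for Dlx6, -0.39 for Sp8, -0.49 for Sp9 and -0.41 for Maf, all close to those of edgeR. With each library left out in turn, between 6 and 7 factors were called lower, and the log2 fold change ran from -0.52 to -0.27 for Dlx5, from -0.74 to -0.56 for Dlx6 and from -0.59 to -0.24 for Maf. A lone library in a group is then assumed to vary like the others. At a threshold of 0.01, 6 factors were called lower. The deviations of same-numbered libraries had a correlation of 0.00 over genes, so no signal shared by same-numbered libraries was seen. This cannot show whether same-numbered libraries came from the same animals or cultures. With the replicate block 8 factors were lower and 1 higher, with 3338 genes lower and 3476 higher over all. The median log2 fold change of all tested genes lay between -0.03 and 0.01 under every alternative. Relative to the pan-neuronal list, the median difference of the factors was 0.03 under each prior count and gene choice, and relative to the GABA list it was 0.25, 0.28 with a prior count of 0.1 and 0.23 with list genes of at least 5 CPM. Among the factors, Dlx6 had the fewest counts, at most 80 in a library, and Gsx1, Gsx2, Nkx2-1, Nkx6-2, Lhx8, Npas1, Dlx4, Maff and Pvalb had at most 55.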

Other observations

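Genes of striatal GABA neurons, which also descend from Dlx-expressing precursors and were measured beside the cortical factors. Of 11 genes 10 were tested, 7 were called lower and 1 higher, with a median log2 fold change of -0.96. The highest of them, Foxp1, was at -0.01 and did not pass (edgeR adjusted p = 0.921), Adora2a, the adenosine receptor of striatal neurons, had the largest fall at -1.16, and Rgs9, a regulator of G-protein signalling, was the gene called higher at 0.68. Their summed level was 219 to 235 CPM with FGF2 and 277 to 280.0 CPM without.

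Of the remaining relatives of the factors, Dlx3 had at most 1 count in a library, and Dlx4 had 5 and 3 counts against 12 and 26 in the untreated libraries (log2 fold change -2.04, edgeR adjusted p = 0.00461). The small Maf proteins, which lack an activation domain, were higher for Mafk (log2 fold change 0.73, edgeR adjusted p = 0.00175) and Maff (1.74, edgeR adjusted p = 2.17e-04, at 28 and 44 counts against 11 and 13), while Mafg did not pass (0.07, edgeR adjusted p = 0.479). DESeq2 called Maff and did not call Mafk or Dlx4. Of the 11 family relatives 9 were tested, 1 was called lower and 5 higher by edgeR, and 0 lower and 2 higher by DESeq2.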
